A study of Mus musculus with 10 samples.

Results

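The distal summits described here are positions of RNA polymerase II that lay far from any gene with an assigned promoter peak. A summit was taken as distal when the same library's table did not assign it to a promoter and when it lay over 10000 bp from every gene span in the 6 deposited tables of promoter peaks, which hold 10419 occupied genes. Distal summits within 500 bp of each other were joined into sites, which gave 11033 sites, against 38310 sites when all summits were joined in the same way. The rule used positions and promoter assignment and no score, so peak strength, recurrence between libraries and presence by time were not chosen directly. Leaving out promoter summits may still shape them. The label needs a qualification: gene spans in the deposited tables can be shorter than in RefSeq, and 725 sites (6.57%) lay within 10000 bp of the RefSeq span of an occupied gene.

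Polymerase was mapped by chromatin immunoprecipitation and sequencing (ChIP-seq) with the antibody 8WG16 in primary Th1 cells of Balb/c DO11.10 mice, a strain that carries a transgenic T cell receptor. Peripheral CD4+ T cells had been primed in culture with anti-CD3, anti-CD28, interleukin 12 and a blocking antibody to interleukin 4, expanded in an interleukin 2 analogue and kept for a day without it. In these cells, 2 libraries each were made without restimulation (NR), after 30 min and after 2 h of plate-bound anti-CD3 with soluble anti-CD28. The labels number the libraries as replicates and do not state if the cultures or animals behind them were separate, so p-values cover only library-to-library spread, possibly technical. Promoter peaks were assigned to 12 or 13 of 13 T cell markers in each library and to no marker of B cells (0 of 5), myeloid cells (0 of 5) or NK cells (0 of 2). Of the 2 CD8 markers, Cd8a had no peak in any library and Cd8b1 had one in all 3 libraries of replicate 2 and in none of replicate 1.

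Away from promoters, polymerase is found on enhancers, where it makes short unstable transcripts, in genes for long non-coding RNAs and small RNAs, and along transcripts that continue past annotated gene ends. In T cells, receptor signalling switches on immediate early and cytokine genes within minutes to hours, and many of these genes have enhancers scattered over long distances. A summit marks where signal peaked. It does not say which of these kinds of transcription was under way, or which gene a distal element serves, so the nearest occupied gene is used below only as a name for the place.

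Some distal sites fell on annotated gene starts that the tables of promoter peaks do not list. RefSeq windows of 250 bp before to 50 bp after a start were matched by symbol and build (GRCm38.p6, which is mm10), and 79 sites called in at least 2 libraries had their strongest summit inside the window of 82 genes, 62 of them lncRNA genes and 20 protein-coding. Of these genes 80 are not among the occupied genes. The windows of 3 of these genes are shown from 5′ to 3′, because they held distal sites with the highest ranks that were called in all 6 libraries. Capitals mark GGGCGG (the GC box) and CCAAT on either strand, and these motifs do not overlap. The Chaserr window is chr7:73558346-73558645 on the minus strand, that of Pik3ca chr3:32396815-32397114 on the plus strand and that of Slc36a3os chr11:55136749-55137048 on the plus strand.
Chaserr: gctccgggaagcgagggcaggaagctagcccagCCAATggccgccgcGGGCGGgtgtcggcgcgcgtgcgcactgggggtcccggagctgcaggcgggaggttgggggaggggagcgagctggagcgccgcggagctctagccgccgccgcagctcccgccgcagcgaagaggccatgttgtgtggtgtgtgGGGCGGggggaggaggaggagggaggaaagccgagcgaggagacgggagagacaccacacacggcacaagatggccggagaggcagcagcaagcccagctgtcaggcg
Pik3ca: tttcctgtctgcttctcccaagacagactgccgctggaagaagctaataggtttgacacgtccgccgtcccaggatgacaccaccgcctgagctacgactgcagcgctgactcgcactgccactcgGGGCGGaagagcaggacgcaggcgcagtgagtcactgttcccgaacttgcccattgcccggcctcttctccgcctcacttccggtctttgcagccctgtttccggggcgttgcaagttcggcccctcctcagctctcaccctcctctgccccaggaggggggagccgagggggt
Slc36a3os: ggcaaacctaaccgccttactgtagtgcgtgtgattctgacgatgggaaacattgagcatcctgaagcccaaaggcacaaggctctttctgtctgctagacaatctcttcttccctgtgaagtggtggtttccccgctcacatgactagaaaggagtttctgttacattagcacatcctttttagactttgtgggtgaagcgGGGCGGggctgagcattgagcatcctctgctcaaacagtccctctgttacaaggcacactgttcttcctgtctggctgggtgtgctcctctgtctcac

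The strongest summit lay 8 bp upstream of the Chaserr start, 173 bp upstream of the Pik3ca start and 27 bp downstream of the Slc36a3os start. Chaserr is a long non-coding RNA encoded next to the chromatin remodeller gene Chd2, and Pik3ca encodes a catalytic subunit of phosphoinositide 3-kinase, which acts below the T cell receptor and CD28. In the lists, −log10 q at the Chaserr site was 85.2 in NR replicate 1 and 252.1 in NR replicate 2, 100.8 and 423.7 at 30 min, and 203.8 and 293.3 at 2 h. At Pik3ca it was 37.9 and 198.4, 67.1 and 331.1, and 119.2 and 274.2 in the same order. These scores are the authors' and rank peaks inside a list, so they are printed to show that both starts were called in every library and are not compared between libraries. The windows of the 82 genes averaged 56.8% GC, against 53.6% over the 27025 genes with a window and 61.1% over the 7935 occupied genes with a window. For the 82 genes the window that held the summit was used, and for the comparison sets the first listed window of each gene. The sets therefore differ in how windows were chosen, here and for the motifs. A GC box was present in 31.7% of the 82 windows, in 35.9% of all windows and in 66.1% of those of occupied genes. TGANTCA, the site of AP-1 factors, read on both strands, was in 13 of the 82 windows (15.9%), in 7.93% of all windows and in 4.78% of windows of occupied genes. Another 5 motifs were counted on both strands. TGGAAA, the core of the NFAT site, was in 14.6% of the 82 windows, in 21.5% of all and in 15.9% of those of occupied genes. CCAAT was in 32.9, 37.9 and 39.4% in the same order, TATAAA in 9.76, 14.2 and 6.12%, TGACGTCA, bound by CREB and ATF factors, in 4.88, 1.88 and 3.49%, and CCGGAAG, an ETS site, in 14.6, 9.12 and 19.8%.

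Distal sites also lay near microRNA genes, and mature sequences are shown for 4 hairpins picked after their values were seen: 2 with nearby sites called only at 2 h, and 2 below the highest-ranked site near any hairpin, which was called in every library. Capitals mark the seed, bases 2 to 8, which pairs with target messages.
mmu-miR-29a-3p: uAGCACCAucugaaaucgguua
mmu-miR-29b-3p: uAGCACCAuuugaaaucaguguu
mmu-let-7a-5p: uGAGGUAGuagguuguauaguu
mmu-let-7f-5p: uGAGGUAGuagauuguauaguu

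The seed AGCACCA is shared by miR-29a and miR-29b, which are known to target Ifng and the Th1 regulators Tbx21 and Eomes in mouse T cells. GAGGUAG is the seed of both let-7 members, a family that restrains growth. The hairpins of Mir29a and Mir29b-1 lie close together on the minus strand of chromosome 6, and sites at chr6:31065528-31066075 and chr6:31072692-31072815 lay 2982 and 9722 bp upstream of Mir29b-1. Both were called in both 2 h libraries and in no 30 min or NR library. Their −log10 q was low, at 4.07 and 7.17 for the nearer and 12.2 and 12.2 for the farther site (2 h replicates 1 and 2). The site at chr13:48546323 lay 8195 bp upstream of Mirlet7a-1 and 8550 bp upstream of Mirlet7f-1 and was called in all 6 libraries at a median within-list percentile of 93.7. Sites called in both 2 h libraries alone also lay near Mir7661 and Gm51267. In total, 23 sites called in at least 2 libraries lay within 10000 bp of 21 of the 1005 microRNA hairpin genes in the RefSeq table.

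NR replicate 1 stood apart in its distal summits. It held 6890 distal summits among 19888 (34.6%), against 2964 of 17627 (16.8%) in NR replicate 2. At 30 min the lists held 2438 of 15330 (15.9%) and 4451 of 23299 (19.1%), and at 2 h they held 3529 of 20086 (17.6%) and 4016 of 21743 (18.5%). Of the 6778 distal sites in NR replicate 1, 4566 (67.4%) were in no other library, a share of 5.00 to 16.5% in the others. These private sites made up 41.4% of all distal sites, and their median distance to an occupied gene was 361073 bp, while sites called in at least 2 libraries lay at a median of 43834 bp. Read depth is unknown from these lists, and the lowest local background pileup was 0.659 in NR replicate 1, 3.41 in NR replicate 2, 1.57 and 3.30 at 30 min and 2.48 and 3.61 at 2 h.

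**Figure D1:**
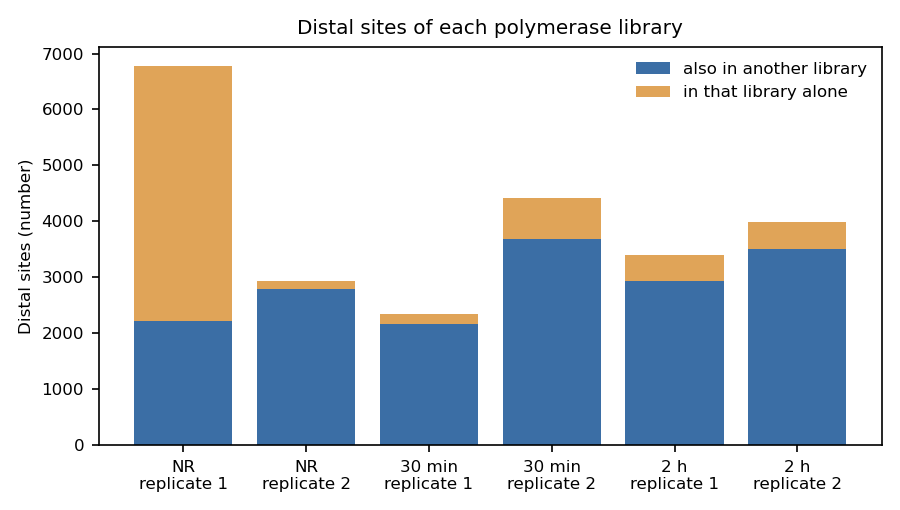
Number of distal sites in each library, NR to 2 h from left to right, split into sites also called in another library (blue) and sites called in that library alone (orange). NR replicate 1 has 4566 sites of its own, while the other libraries have 147 to 732.

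The private sites of NR replicate 1 were crowded on a block of chromosomes. Chromosomes 10 to 15 and X, chosen after the counts were seen, held 61.0% of its distal summits, against 34.0 to 35.4% in the other 5 libraries, and 73.4% of the sites called in it alone. Its assigned promoter summits showed no such shift, with 31.3% on these chromosomes and 31.2 to 31.4% in the other libraries. Chromosome 10 carried 878 distal summits in NR replicate 1, against 148 to 287 in the others, and chromosome 12 carried 754, against 146 to 230. On chromosome 1 the library was within the range of the rest, with 297 distal summits against 197 to 341. Counts over many sites or genes that rest on NR libraries are given with and without it, and for single loci the value of each library is shown.

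**Figure D2:**
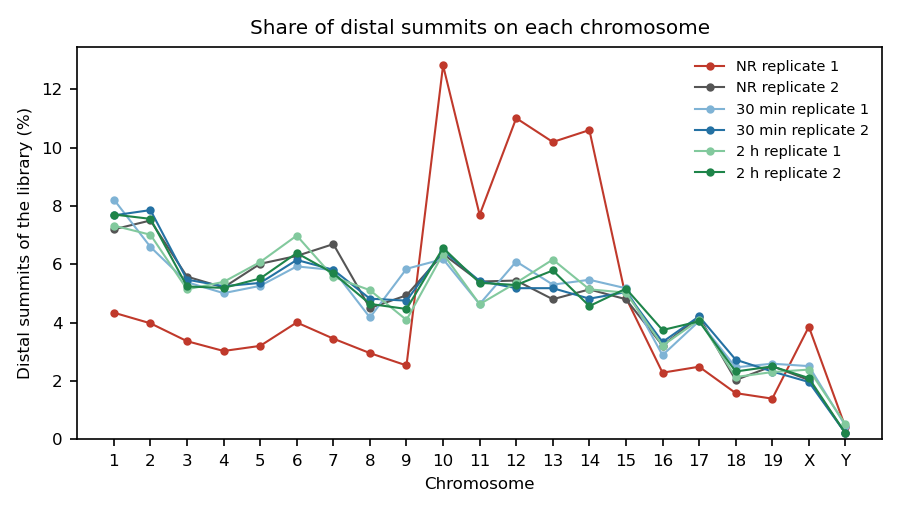
Share of each library's distal summits on each mouse chromosome, in percent, as lines by library. NR replicate 1 (red) lies above the other 5 libraries on chromosomes 10 to 14 and X and below them on chromosomes 1 to 9.

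The percentage of summits that were distal did not separate the time points. It averaged 17.5 ± 2.26% at 30 min, against 25.7 ± 12.6% in NR cells, a difference of -8.23 percentage points (SD, n = 2; adjusted p = 1, exact permutation test, two-sided, 3 comparisons). At 2 h it averaged 18.02 ± 0.637%, which was -7.71 percentage points from NR and 0.516 from 30 min, each with an adjusted p of 1 by the same exact test. A split of 2 libraries against 2 cannot give an unadjusted p below 0.33. Without NR replicate 1 the differences from NR were 0.689 points at 30 min and 1.20 points at 2 h, of opposite sign to the values with it.

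Distal summits were weaker than other summits of the same list in every library. The other summits include all assigned promoter summits (9360 in NR replicate 1 and 10383 in NR replicate 2), which the rule keeps out of the distal set. The comparison therefore cannot separate distance from promoter assignment, and its sign may follow from the rule. The median within-list percentile of −log10 q was 30.1 for distal and 62.7 for other summits in NR replicate 1, and 29.7 and 55.4 in NR replicate 2. At 30 min the medians were 37.1 and 52.7 in replicate 1 and 38.7 and 54.6 in replicate 2. At 2 h they were 36.7 and 54.2, and 36.2 and 54.9. Distal minus other summits averaged -20.99 ± 6.79 percentile points and was below 0 in 6 of 6 libraries (SD, n = 6; exact sign-flip permutation, two-sided, p = 0.031, the smallest 6 libraries allow). Without NR replicate 1 the mean was -18.7, with p = 0.0625 by the same exact test, the smallest for 5 libraries. Pooled over the 6 lists, the 617 summits 10000 to 11000 bp from a gene, just inside the rule, had a median −log10 q of 12.2. The 643 at 9000 to 10000 bp, just outside it, had 10.4. Scores rank peaks inside a list and a place can count once per library, so the pooled medians may reflect the mix of libraries.

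Recurrence was also lower, again beside sets that hold the assigned promoter summits. Of the distal sites, 1170 (10.6%) were called in all 6 libraries, against 25.5% of the sites made from all summits, and 4456 (40.4%) were called in at least 2. NR replicate 1 weighs on this contrast: without it 1368 of 6501 distal sites (21.0%) were called in all 5 libraries left, against 32.2% of the sites of all summits, and 64.6% against 67.6% were called in at least 2. Within a group, 56.8 ± 12.8% of distal summits were also in the other library of the group, against 75.1 ± 7.05% of other summits (SD, n = 3 groups; difference -18.4 percentage points, exact sign-flip permutation p = 0.25, the smallest 3 groups allow). The shares for distal and other summits were 43.7 and 80.2% in NR cells, 57.3 and 67.1% at 30 min, and 69.3 and 78.1% at 2 h, so distal summits had the lower share in each group. Without NR replicate 1 only the stimulated groups could be paired, and the difference was -9.32 points (exact sign-flip permutation p = 0.5, the smallest possible).

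A greater sharing of distal sites within time points than between them was not detected. The Jaccard index, the number of distal sites shared by a pair of libraries divided by the number in either, was 0.365 ± 0.149 within groups (SD, n = 3 pairs) and 0.384 ± 0.151 between groups (n = 12 pairs), with a difference of -0.0188 (exact permutation over 15 pairings, one-sided, p = 0.667). The smallest p that 15 pairings allow is 0.067, so no difference could have passed 0.05. The sign rests on single libraries: the index was 0.225 between the NR libraries, and the difference was -0.0421 without NR replicate 1, 0.101 without NR replicate 2 and 0.019 without 30 min replicate 2. The highest index of all 15 pairs was 0.621, between 2 h replicate 2 and 30 min replicate 2, and the index between 2 h replicates was 0.522. In all 3 libraries of replicate 2 and none of replicate 1 there were 246 sites, with 61 in the reverse pattern. A block of 15 neighbouring sites at chr9:3003502-3028646, near Mir101c, was called in NR replicate 1 and 30 min replicate 1 and not at all in the other 4 libraries. These are sites called in at least 2 libraries, so equal counts in the pair follow from that choice. With sites of 1 library included, chr9:3000464-3028646 held 23 sites, 16 in NR replicate 1 and 22 in 30 min replicate 1.

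Recurrence fell with distance from occupied genes when the private sites of NR replicate 1 were counted, and the shares differed little once those sites were left out. Of 1568 sites at 10000 to 20000 bp, 62.6% were called in at least 2 libraries, and of 5301 sites over 100000 bp away 21.4% were. After sites of NR replicate 1 alone were left out, the shares were 69.2% at 10000 to 20000 bp, 69.6% at 20000 to 50000 bp, 69.9% at 50000 to 100000 bp and 67.3% beyond. That step removes only sites that are not recurrent and keeps those the library shares, so the shares rise by construction. Shares by distance with the whole library left out were not computed. Some recurrent sites came in runs. When sites called in at least 2 libraries were chained across gaps of up to 10000 bp, 2049 of 2811 chains held 1 site. Chains of 3 or more sites numbered 349, together 1550 of 4425 sites (35.0%), and 14 chains held 10 or more. The number of runs to be expected was not computed.

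The highest-ranked distal sites called in all 6 libraries were mostly at small nuclear RNA (snRNA) genes, most kinds of which are transcribed by polymerase II to supply the spliceosome. Within 1000 bp of an snRNA gene there were 29 sites, 24 of them in at least 2 libraries and 19 in all 6. Of those 19, 18 had a median within-list percentile over 95, while the median over all distal sites called in 6 libraries was 57.8. Of the 20 highest-ranked sites called in all 6 libraries, 16 were at snRNA genes. The 8 named by rank lay at Gm22614 and Gm25890 on chromosome 3, Rnu5g, a gene of the U5 snRNA, on chromosome 9, Gm25360, Gm23472 and Gm24497 on chromosome 1, and Gm23444 and Gm26316 on chromosome 11. At Gm22614 (chr3:96488859-96488967) −log10 q was 405.4 and 340.5 in NR libraries, 501.6 and 495.0 at 30 min, and 571.3 and 480.7 at 2 h. At Rnu5g (chr9:65201589-65201817) it was 544.7 and 344.4, 536.7 and 415.0, and 498.7 and 417.7. The within-list percentile was 99.8 or higher in each library at Gm22614 and 98.9 or higher at Rnu5g. Transfer RNA genes, which are transcribed by polymerase III, had 30 sites within 1000 bp, 26 of them in at least 2 libraries and 8 in all 6, at a median percentile of 35.2.

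Most other sites lay inside or between genes of other kinds. Inside a RefSeq span of some gene were 37.7% of all sites, and 4647 (42.1%) lay over 10000 bp from every RefSeq gene. Within 1000 bp of a RefSeq start were 348 sites, 271 at lncRNA starts and 77 at protein-coding starts. Of these 348, 73.0% were called in at least 2 libraries and 31.9% in all 6, while sites over 10000 bp from any RefSeq gene reached 30.1% and 7.53%. NR replicate 1 alone supplied 2586 of the 4647 remote sites and 22 of the 348 at starts. Another 67 sites lay on sequences outside chromosomes 1 to 19, X and Y.

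A site was counted as gained when both libraries of the later time called it and neither library of the earlier time did, and as lost in the reverse case. At 30 min against NR, 177 distal sites (1.60%) were gained and 77 (0.698%) lost, while over the sites of all summits 1.53% were gained and 1.13% lost. At 2 h against NR, 592 (5.37%) were gained and 158 (1.43%) lost, beside 6.05% and 1.88% over all sites. At 2 h against 30 min, 181 (1.64%) were gained and 69 (0.625%) lost, beside 2.09% and 0.574%. Gains thus outnumbered losses in all 3 comparisons, at shares near those of all sites. The size of this excess depended on list length. With each list cut to the length of the shortest, 191 sites were gained and 84 lost at 30 min against NR. On these lists 338 were gained and 176 lost at 2 h against NR. At 2 h against 30 min gains and losses were then close, at 135 and 119. The comparisons with NR share the NR libraries, and the 2 h libraries enter both of theirs. With NR represented by replicate 2 alone, 237 sites were gained and 265 lost at 30 min, and 681 were gained and 513 lost at 2 h, so at 30 min the balance turned.

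**Figure D3:**
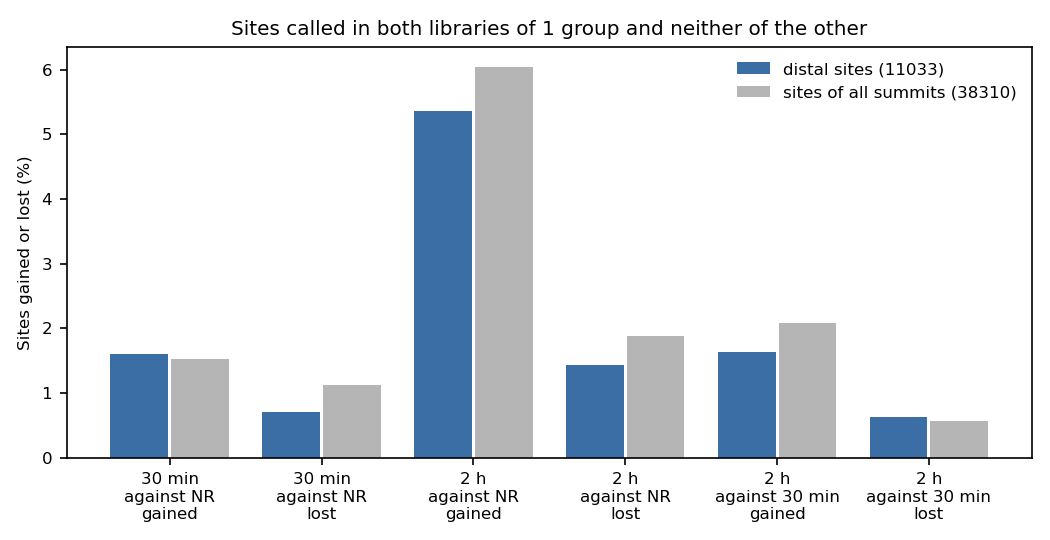
Percentage of sites called in both libraries of 1 group and neither of the other, for 11033 distal sites (blue) and 38310 sites of all summits (grey). Gains at 2 h against NR are the highest bars, at 5.37% of distal sites and 6.05% of all sites.

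Many apparent losses had another summit close by. Of the 77 sites lost at 30 min, 64 (83.1%) had a 30 min summit of some kind within 2000 bp, and of the 158 lost at 2 h, 83 (52.5%) had a 2 h summit within that distance. Among gained sites the share with an NR summit within 2000 bp was lower, at 43 of 177 (24.3%) at 30 min and 59 of 592 (9.97%) at 2 h. Without NR replicate 1 the shares were 169 of 265 (63.8%) and 201 of 513 (39.2%) for lost sites, and 53 of 237 (22.4%) and 70 of 681 (10.3%) for gained sites, at 30 min and 2 h. With both NR libraries, counting only sites without such a neighbour left 134 gained and 13 lost at 30 min, and 533 gained and 75 lost at 2 h. The lists give the summit of a distal peak and not its width, so a peak whose summit moved cannot be told apart from a peak that ended and another that began.

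Il4ra, the interleukin 4 receptor alpha chain, shows such a pair. The sites of the pair lay 11197 and 11824 bp from the deposited span of Il4ra but only 4003 and 4630 bp from its RefSeq span. The site at chr7:125583477-125583519 was called in both 30 min libraries, with −log10 q of 19.2 and 86.2, and in no NR or 2 h library. The site at chr7:125584080-125584104 was called in both NR libraries, with −log10 q of 20.6 and 47.0, and in no stimulated library. The sites are 561 bp apart, just beyond the joining distance, and the place was called in NR and 30 min cells but had no 2 h summit within 2874 bp of the 30 min site.

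Sites called in both 30 min and both 2 h libraries and in neither NR library numbered 96, or 136 when NR was represented by replicate 2 alone. The 96 made up 0.870% of distal sites, near the 0.887% of the sites of all summits with this pattern. The highest-ranked lay at chr16:3723282-3723353 near Mefv, the pyrin gene, where −log10 q was 16.8 and 70.5 at 30 min and 40.4 and 98.0 at 2 h, and the nearest NR summit was 20813 bp away. A site inside Ctif, with Smad7 as the nearest occupied gene, had 8.92 and 58.1 at 30 min and 61.7 and 83.1 at 2 h, and the nearest NR summit was 29202 bp away. Smad7 encodes an inhibitor of TGF-beta signalling. The site at chr6:108552956-108553025 lay 1840 bp from the RefSeq span of Itpr1 and 107673 bp from Bhlhe40, its nearest occupied gene by the deposited spans. It had 15.3 and 47.1 at 30 min and 35.8 and 80.7 at 2 h. Its nearest NR summit was 15744 bp away. The 3 others named by rank lay inside the lncRNA gene Gm31452 and the pseudogenes Gm12715 and Gm46496, the last 188132 bp from Ptger4, a prostaglandin E2 receptor gene. That in Gm31452 had an NR summit 705 bp away, and for the other 5 named sites the nearest NR summit was at least 15744 bp away.

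Sites called in both 2 h libraries and no other numbered 153, or 166 with NR replicate 1 left out. The 153 made up 1.39% of distal sites, beside 1.73% of the sites of all summits. The highest-ranked was inside the lncRNA gene 4930459C07Rik on chromosome 10 (chr10:96227980-96227983), with −log10 q of 27.9 and 54.1. Near Rgs1, a regulator of G protein signalling, and Lcp2, the adaptor SLP-76 of T cell receptor signalling, the named sites had 17.2 and 33.6, and 13.9 and 30.5. The nearest NR or 30 min summit was 8718 bp from the Rgs1 site and 5585 bp from the Lcp2 site. The sites near Trim33 and Prkcq, which encodes protein kinase C theta, had −log10 q of 24.3 and 48.8, and 21.5 and 37.3, but NR summits lay 731 and 1713 bp away.

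Sites called only in both 30 min libraries were few, at 32, or 40 with NR replicate 1 left out. The 32 made up 0.290% of distal sites, beside 0.258% of the sites of all summits. Besides that near Il4ra, the named ones lay inside E230029C05Rik, near Ift57, near Sema7a, a semaphorin gene, and near Fam46c. The E230029C05Rik site had −log10 q of 25.4 and 84.9, that near Ift57 12.9 and 32.5, that near Sema7a 7.87 and 23.6 and that near Fam46c 6.50 and 11.7. An NR or 2 h summit lay within 2291 bp of all of these except the Fam46c site. At Fam46c it was 77570 bp away.

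Sites called only in both NR libraries numbered 44, while 193 were in NR replicate 2 alone when replicate 1 was left out. The 44 made up 0.399% of distal sites, below the 0.723% of the sites of all summits. The highest-ranked lay inside the T cell receptor beta locus Tcrb (chr6:41553592-41553603), with −log10 q of 160.9 in NR replicate 1 and 75.6 in NR replicate 2, and the nearest summits of 30 min and 2 h cells were 3752 and 4183 bp away. The others named lay inside the lncRNA gene Gm51701 near Fyco1, with 41.8 and 75.9, inside Padi2 near Sdhb, with 36.7 and 73.0, near Il4ra as above, and 243262 bp from Btg1, with 19.6 and 39.3. Each of these 4 had a 30 min summit within 2421 bp.

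T cell receptor loci held dense sets of distal sites. Tcra, the receptor alpha locus (chr14:52427967-54224198), held 132 sites, 79 of them in at least 2 libraries and 15 in all 6, with 65 and 59 in NR libraries, 48 and 69 at 30 min and 49 and 49 at 2 h. The 2 h libraries were below both NR libraries, and 30 min libraries lay on either side of them. Tcrb held 21 sites, with 12 and 14 in NR libraries, 11 and 9 at 30 min and 5 and 9 at 2 h. Both stimulated groups lay below NR, at 30 min narrowly (11 against 12). Of the 21 sites, 13 were in at least 2 libraries, so sites of 1 library enter these counts. NR replicate 2 on its own gives the same order for Tcra and Tcrb. On another base, genes with at least 3 sites called in at least 2 libraries, 18 of 474 (3.8%) had fewer at 30 min. At 2 h 24 (5.06%) had fewer than in NR. The longest chain of recurrent sites, 29 sites over chr14:54123344-54222447, lay in Tcra next to Dad1, the neighbouring occupied gene. Tcrg held 3 sites, none of them in 2 libraries.

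Sites were next read by the gene list of their nearest occupied gene; the lists were chosen with earlier results in view. At 2 h against NR, 33 of 254 sites nearest to immediate early genes (12.99%) were gained and 8 lost, where 5.37% and 1.43% of all distal sites were gained and lost. The counts were 9 gained and 2 lost of 68 for cytokine genes (13.2% gained), 20 and 2 of 163 for activation factors (12.3%), 11 and 3 of 99 for activation receptors (11.1%) and 7 and 1 of 37 for genes of NF-kB signalling (18.9%). Feedback regulators had 7 and 1 of 59 (11.9%), quiescence genes 8 and 3 of 82 (9.76%), Th1 genes 4 and 3 of 57 (7.02%), T cell identity genes 7 and 5 of 102 (6.86%) and ribosomal or housekeeping genes 1 and 1 of 15 (6.67%). In every list the gained share was above that of all distal sites, but NR replicate 1 alone supplies 41.4% of all distal sites and none of those can be gained. Over sites called in at least 2 libraries the gained share was 24.1% for immediate early genes, 22.5% for cytokine genes, 22.2% for activation factors, 22% for activation receptors, 38.9% for NF-kB genes, 18.9% for feedback regulators, 17.0% for quiescence genes, 14.3% for T cell identity genes, 11.1% for Th1 genes and 8.33% for ribosomal or housekeeping genes, beside 13.3% for all. On that base Th1 and ribosomal or housekeeping genes lay below the share of all distal sites. The lost shares on the same base were 10.2% for T cell identity genes, 8.33% each for Th1 and ribosomal or housekeeping genes, 6.38% for quiescence genes, 6% for activation receptors, 5.84% for immediate early genes, 5.56% for NF-kB genes and 5% for cytokine genes, all above the 3.55% of all sites, with 2.70% for feedback regulators and 2.22% for activation factors below it.

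With NR represented by replicate 2 alone, 10.5% of distal sites were gained and 7.89% lost at 2 h. The gained and lost counts were then 34 and 12 of 220 for immediate early genes (15.5% gained), 11 and 4 of 61 for cytokine genes (18.03%), 21 and 10 of 153 for activation factors (13.7%), 11 and 6 of 84 for activation receptors (13.1%) and 7 and 2 of 36 for NF-kB genes (19.4%). They were 8 and 3 of 59 for feedback regulators (13.6%), 8 and 5 of 65 for quiescence genes (12.3%), 7 and 4 of 55 for Th1 genes (12.7%) and 1 and 1 of 15 for ribosomal or housekeeping genes (6.67%). T cell identity genes had 7 gained and 11 lost of 83, so their balance turned. A gene may stand in more than 1 list, so the lists share sites.

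At 30 min against NR, 1.60% of all distal sites were gained and 0.698% lost. Gained and lost were 9 and 3 of 254 sites for immediate early genes (3.54% gained), 8 and 2 of 163 for activation factors (4.91%), 3 and 1 of 68 for cytokine genes (4.41%), 3 and 1 of 99 for activation receptors (3.03%) and 3 and 2 of 57 for Th1 genes (5.26%). Quiescence genes had 3 and 2 of 82 (3.66%), feedback regulators 2 and 0 of 59 (3.39%) and NF-kB genes 1 and 0 of 37 (2.70%). T cell identity genes had none gained and 3 lost of 102, and ribosomal or housekeeping genes none gained and 1 lost of 15. Without NR replicate 1, 3.65% of all distal sites were gained and 4.08% lost, with 9 and 5 of 220 for immediate early genes and none gained and 8 lost of 83 for T cell identity genes.

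For genes the sites were counted by nearest occupied gene. To keep the base even between groups, a gene entered a comparison when at least 3 of its sites were called in at least 2 of the 4 libraries compared, a base chosen after the data were seen. At 2 h against NR, 99 of 357 genes (27.7%) had more sites in both 2 h libraries than in either NR library and 22 (6.16%) had fewer. Of the 99, 8 had no such site in either NR library and so qualified through the 2 h libraries alone. At 30 min against NR, 28 of 335 (8.36%) had more and 24 (7.16%) fewer, and at 2 h against 30 min, 31 of 409 (7.58%) had more and 6 (1.47%) fewer. With sites called in at least 2 of all 6 libraries, a base to which 4 stimulated and 2 NR libraries contribute, 474 genes qualified. On it 135 (28.5%) had more and 24 (5.06%) fewer at 2 h against NR, but 57 (12%) had more and 18 (3.8%) fewer at 30 min (at 2 h against 30 min, 30 or 6.33% and 12 or 2.53%), so the excess of gains at 30 min depended on the base. On the base of 6 libraries, with each list shortened to the length of the shortest, 74 of 320 genes (23.1%) had more sites at 2 h than in NR and 36 (11.2%) had fewer. The counts were 154 and 65 of 452 genes at 2 h and 75 and 42 at 30 min without NR replicate 1.

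The pathway lists, chosen with earlier results in view, held 49 of the 357 genes of the even base, and 23 (46.9%) had more sites at 2 h than in NR and 5 (10.2%) fewer, beside 27.7% and 6.16% over all genes. At 30 min, 3 of 45 had more and 5 fewer. Of 13 immediate early genes, 9 had more sites at 2 h and none fewer. Of 8 activation factors 5 had more and 1 fewer, of 5 activation receptors 2 had more and 2 fewer, and of 5 cytokine genes 2 had more and none fewer. T cell identity genes were split, with 2 of 7 higher and 2 lower. Neither of the 2 ribosomal or housekeeping genes differed without overlap between 2 h and NR. On the base of 6 libraries 56 list genes qualified, of which 30 had more and 5 fewer at 2 h, and 6 of the 30 had no site in either NR library. On that base the counts were 30 and 7 of 56 without NR replicate 1. The site numbers per gene given next are on the base of 6 libraries.

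**Figure D4:**
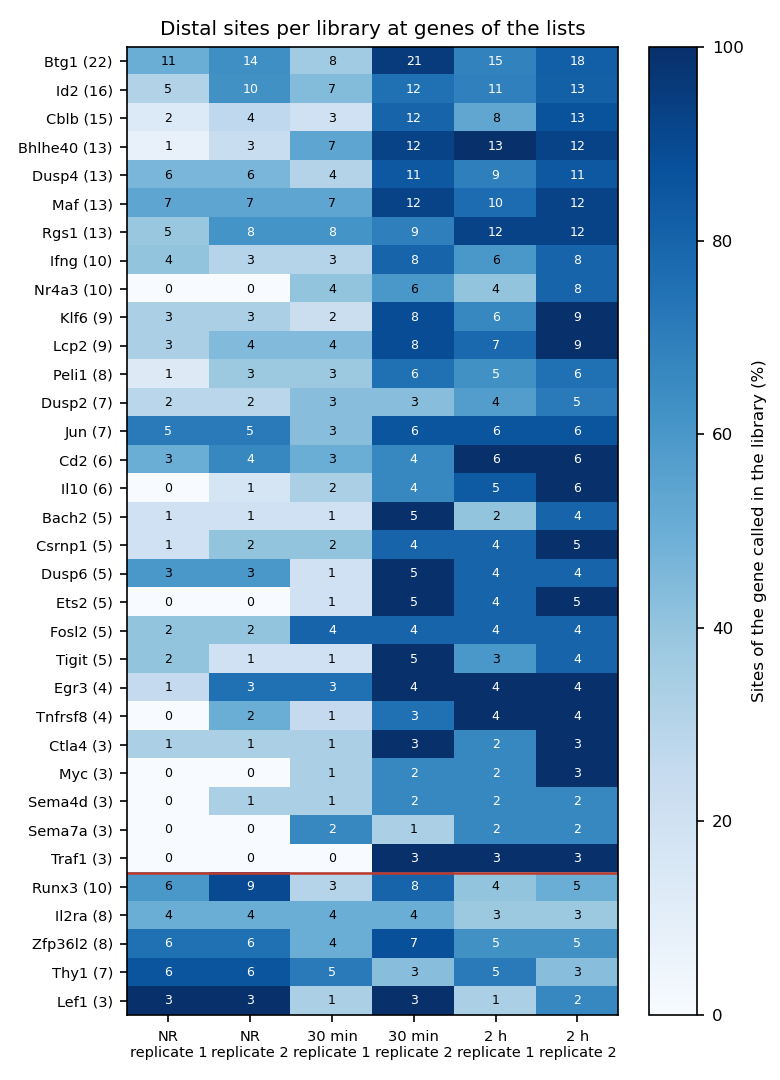
Distal sites per library (columns, NR to 2 h) for list genes whose 2 h and NR libraries did not overlap, over sites called in at least 2 of 6 libraries. Cells give the number of sites called, shading gives it as a percentage of the gene's sites, whose total stands in parentheses. The 29 genes above the red line, of the 30 counted, had more sites at 2 h and the 5 below it had fewer.

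Among immediate early genes, Nr4a3, an orphan nuclear receptor gene induced by T cell receptor signalling, had no distal site in either NR library, 4 and 6 sites at 30 min and 4 and 8 at 2 h among 10 in all. It thus qualified through stimulated libraries alone. Of these 10 sites, 9 lay inside the longer RefSeq span of Nr4a3 itself, so they lie in the body of the gene. Their −log10 q was low, between 2.98 and 14.99. Rgs1 had 5 and 8 sites in NR libraries, 8 and 9 at 30 min and 12 and 12 at 2 h among 13 in all. The strongest Rgs1 site (chr1:144306857-144307158), 58099 bp from the gene, was called in all 6 libraries with a median percentile of 93.7. Egr3, a zinc finger factor gene, had 1 and 3 sites in NR libraries, 3 and 4 at 30 min and 4 and 4 at 2 h, and its site at chr14:70061996 had −log10 q of 4.30 in NR replicate 2, 20.8 and 81.4 at 30 min and 14.9 and 47.3 at 2 h. NR replicate 1 did not hold that site. Egr2 had only 2 sites, too few to enter the gene counts above, and is shown because of its values. These sites, at chr10:67497181 and chr10:67503311, were called in all 4 stimulated libraries and in neither NR library.

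The next 5 genes, like Nr4a3, Rgs1, Egr3 and Egr2, were picked after their values were seen. Btg1, an antiproliferative gene, had 11 and 14 sites in NR libraries, 8 and 21 at 30 min and 15 and 18 at 2 h among 22 in all. Cblb, a ubiquitin ligase that raises the threshold of T cell activation, had 2 and 4, 3 and 12, and 8 and 13 of 15. Of these 15 sites, 6 lay inside the longer RefSeq span of Cblb itself, and 5 of those 6 were in no NR library. At Btg1 the 30 min libraries lay on either side of NR, and at Cblb 30 min replicate 1 lay between the NR libraries and replicate 2 above them. Dusp4, a phosphatase of MAP kinases, had 6 and 6, 4 and 11, and 9 and 11 of 13 in the same order, and Dusp2, from the same family, 2 and 2, 3 and 3, and 4 and 5 of 7. Zfp36l2, which encodes an RNA-binding protein that promotes decay of messages, went the other way at 2 h, with 6 and 6, 4 and 7, and 5 and 5 of 8.

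Bhlhe40, a transcription factor gene that shapes cytokine output in T helper cells, had 1 and 3 sites in NR libraries, 7 and 12 at 30 min and 13 and 12 at 2 h among 13 in all. Every stimulated library was above both NR libraries. Of the 13 sites, 8 lay inside the RefSeq span of Itpr1, an occupied gene whose span in the deposited tables is shorter, so part of this set may equally be named for Itpr1, a calcium release channel gene. The sites farther from Itpr1 included chr6:108571081, called in all 6 libraries, and chr6:108688573 on the other side of Bhlhe40, called in all 4 stimulated libraries with −log10 q of 14.5 and 28.3 at 30 min and 7.77 and 36.8 at 2 h. Ets2, a transcription factor gene, had 0 and 0 sites in NR libraries, 1 and 5 at 30 min and 4 and 5 at 2 h among 5 in all. The farthest lay 421109 bp from the gene, and Ets2 qualified through stimulated libraries alone. Id2 had 5 and 10, 7 and 12, and 11 and 13 of 16, and Maf 7 and 7, 7 and 12, and 10 and 12 of 13. For Maf, 8 sites lay inside the RefSeq span of an occupied gene, Wwox.

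Cytokine and receptor genes gave smaller sets. Il10, which encodes an inhibitory cytokine that Th1 cells can make, had 0 and 1 sites in NR libraries, 2 and 4 at 30 min and 5 and 6 at 2 h among 6 in all lying 16534 to 25817 bp away. Its strongest site (chr1:130994028) had −log10 q of 8.15 in NR replicate 2, 30.2 and 125.5 at 30 min and 60.1 and 73.8 at 2 h, and was not in the NR replicate 1 list. Ifng had 4 and 3 sites in NR libraries, 3 and 8 at 30 min and 6 and 8 at 2 h among 10 in all, so 30 min overlapped NR and 2 h did not. Traf1, an adaptor of NF-kB signalling, had 3 sites, and all were called in 30 min replicate 2 and both 2 h libraries and in no other. Traf1 thus qualified through stimulated libraries alone. Tnfrsf8, which encodes CD30, had 0 and 2 sites in NR libraries, 1 and 3 at 30 min and 4 and 4 at 2 h.

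**Figure D5:**
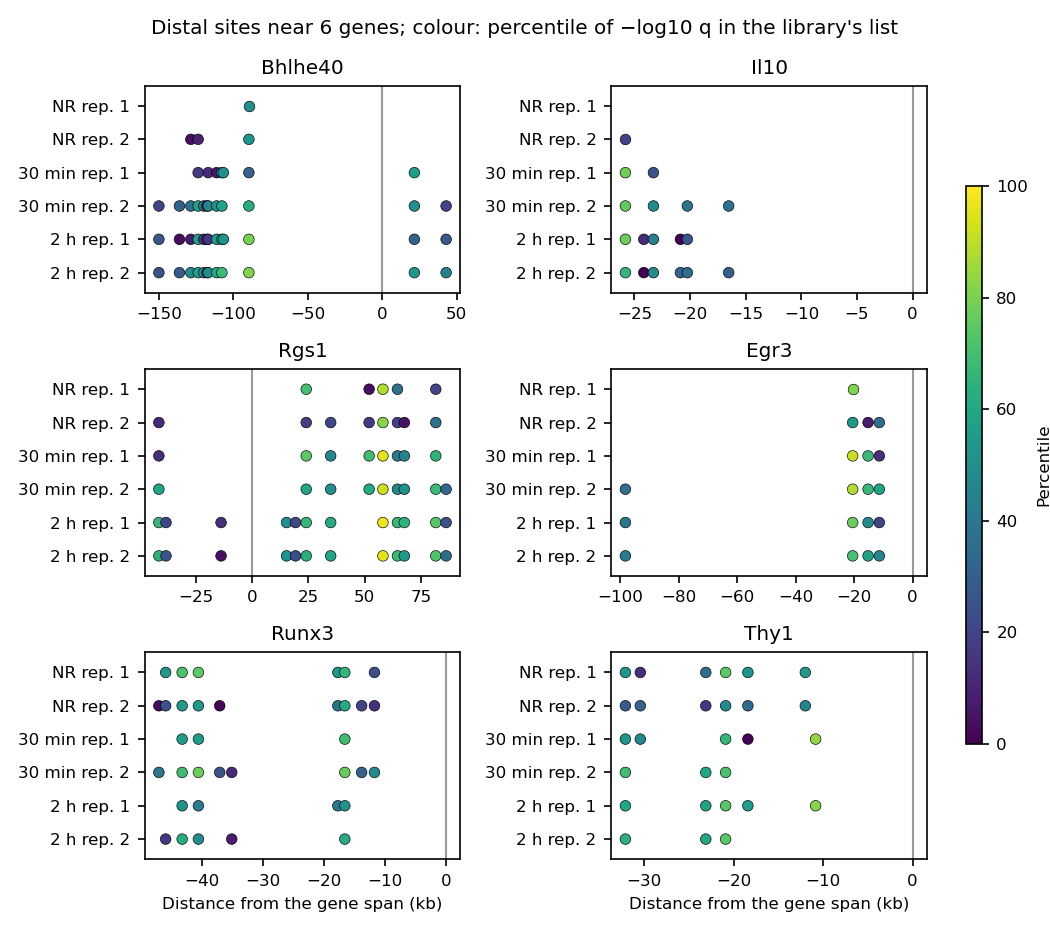
Distal sites near 6 genes by library (rows, NR at the top and 2 h at the bottom), plotted by distance from the gene span in kb along the chromosome, with the span at the grey line, and coloured by the percentile of −log10 q within the library's own list. Sites near Bhlhe40 and Il10 are called mostly in stimulated libraries, and several near Runx3 and Thy1 mostly in NR libraries.

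Genes with fewer sites at 2 h than in NR included Runx3, a factor gene of Th1 and CD8 cells, with 6 and 9 sites in NR libraries, 3 and 8 at 30 min and 4 and 5 at 2 h among 10 in all. Its 3 sites called in all 6 libraries had the highest percentiles of the 10, and the sites missing at 2 h were weak ones, with no −log10 q over 23.9. Thy1, a surface glycoprotein gene, had 6 and 6, 5 and 3, and 5 and 3 of 7. Lef1, a factor gene of naive and resting T cells, had 3 and 3, 1 and 3, and 1 and 2 of 3. The strongest Lef1 site (chr3:131019620-131019645), 90673 bp from the gene, was called in all 6 libraries at a median percentile of 98.6, the highest among sites near genes of the lists. Il2ra, the interleukin 2 receptor alpha chain, had 4 and 4, 4 and 4, and 3 and 3 of 8. Of these 8, 4 lay inside the longer RefSeq span of Il2ra itself, 3 of them in no NR library. Its site 16586 bp away (chr2:11626138-11626282) was called in all 6 libraries, with −log10 q of 47.6 and 62.6 in NR libraries, 96.8 and 184.0 at 30 min and 150.8 and 178.3 at 2 h.

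The other sites named by rank near list genes were mostly present throughout. Those near Hif1a, Btg1, Cd2, Jun, Ptprc and Icos (chr1:61050672) were called in all 6 libraries, at median percentiles of 84.6 to 92.5. A second Icos site (chr1:61046694) was called in every library except 2 h replicate 2, and the site near Ier5 in every library except NR replicate 1. The site near Id2 (chr12:25189534-25189605) was called in NR replicate 2, both 30 min libraries and 2 h replicate 2. Of the 12 highest-ranked sites near genes of these lists, 9 were thus called in all 6 libraries, while sites called only at 2 h had median percentiles of 60.1 or lower.

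Some of the largest site sets belonged to genes outside the lists, described here for their number. Dad1 led with 53 sites, all between the ends of Tcra, with 35 and 33 in NR libraries, 34 and 33 at 30 min and 28 and 30 at 2 h. Chd7, a chromatin remodeller gene, had 33 sites, with 18 and 20 in NR libraries, 19 and 21 at 30 min and 23 and 23 at 2 h, and Pvt1, the lncRNA gene beside Myc, had 26, with 9 and 10, 10 and 18, and 22 and 21. For both, 2 h libraries were above all NR and 30 min libraries. Inside the RefSeq span of an occupied gene lay 12 of the 33 Chd7 sites and 4 of the 26 Pvt1 sites. The chains at chr4:8799716-8817130 and chr4:8837859-8872145, of 7 sites each, had Chd7 itself as their nearest RefSeq gene. Part of the Chd7 set may therefore lie in the body of that gene. Chd2 had 18 sites, with 9 and 12, 12 and 14, and 13 and 14, and the strongest of them was the Chaserr start shown above.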

How the data were processed

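The 6 RNA polymerase II libraries of Th1 cells formed 3 groups of 2. The members and gene lists were chosen with earlier results of these data known. Per the submitters' processing notes, BWA 0.7.13, Picard 1.119, MACS2 2.1.0 and mm10 were used, with no role or order given. Per the file headers, the deposited tables of promoter peaks give a signal (pileup, or coverage at the summit), a ratio (fold enrichment against local background) and 2 scores, −log10 p-value and −log10 q-value. The deposited summit lists give the −log10 q. Lists were called per library, with −log10 q of at least 1.31. They hold no read counts, so depth is unknown.

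Presence of a summit was the measure compared, in Python 3.11.15 with pandas 2.3.3 and numpy 2.4.6. Group differences were tested by exact permutation over libraries. The joining step was tested on simulated data. Named sites are those on chromosomes 1 to 19, X and Y with the highest median within-list percentile: up to 6 in all stimulated libraries only, 6 at 2 h only, 5 at 30 min only, 5 in NR only, 8 in all 6 libraries, and 12 near genes of the cytokine, immediate early, activation, NF-kB, Th1 or T cell lists. Other loci were chosen after their values were seen. Names and sequences come from RefSeq GRCm38.p6. The series' 3 H3K36me3 libraries and the input were not analysed here. Of the items the rules select, 1 named site and 1 list gene are not reported here.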

Additional observations from a re-analysis of the deposited data

How the results depend on the processing

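Of the alternatives tried, those not listed below left a count within 1.5 times or a tested value on its side of the threshold. Joining within 1000 bp gave 36 lost sites at 30 min and 104 at 2 h against NR. Over 50000 bp from genes there were 7090 sites, 499 in all 6 libraries, with 93 gained and 35 lost at 30 min against NR, 304 and 82 at 2 h against NR, and 81 and 39 at 2 h against 30 min. A −log10 q of 5 or more left 6840 sites, 114 gained at 30 min, 98 lost at 2 h against NR and 41 lost at 2 h against 30 min. Lists of equal length gave 6614 sites, 338 gained at 2 h against NR (beside 176 lost) and 119 lost at 2 h against 30 min (beside 135 gained). They also gave a difference in percent distal of -0.300 at 2 h against 30 min and a Jaccard difference of 0.0158. With the spans of all RefSeq genes added, 4723 sites remained, 350 of them in all 6 libraries, with 63 gained and 25 lost at 30 min against NR, 209 and 55 at 2 h against NR, and 63 and 26 at 2 h against 30 min, as fewer sites qualify by construction. Without dense clusters there were 6327 sites, 614 in all 6 libraries, with 79 and 15, 337 and 44, and 97 and 31 in the same order. Among added settings, requiring no summit of the other group within 2000 bp left 13, 75 and 39 lost sites, and RefSeq spans of occupied genes changed no listed value by over 1.5 times. For genes, counted over sites in at least 2 of 6 libraries, the base of the 4 libraries compared gave 28 with more sites at 30 min than NR and 6 with fewer at 2 h than 30 min, equal lists gave 74 with more sites at 2 h than NR and 19 with fewer at 2 h than 30 min, and leaving out NR replicate 1 gave 42 with fewer at 30 min and 65 with fewer at 2 h than NR. The cause of the other changes was not tested.

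Leaving out each library in turn gave 6501 to 10906 sites. Gained and lost counts ranged from 175 to 1745 and 79 to 4741 at 30 min against NR, 588 to 1569 and 158 to 4878 at 2 h against NR, and 181 to 974 and 71 to 1059 at 2 h against 30 min, since a group left with 1 library is called on that library alone. The lost counts of 4741 and 4878 rest on NR replicate 1 alone. Percent distal differed by -17.1 to 0.689, -16.6 to 1.20 and -1.08 to 2.12 points in the same order, with a change of sign without NR replicate 1 in comparisons with NR and without 30 min replicate 1 in the last. The score percentile difference stayed between -22.1 and -18.7, each with p = 0.0625 by exact sign-flip permutation, the smallest for 5 libraries. The Jaccard difference ran from -0.0943 to 0.101. With the replicate block (exact sign flips of within-number differences) percent distal differed by -8.23, -7.71 and 0.516 points, with adjusted p = 1 in each exact test. Same-numbered libraries deviated together (correlations of 0.243 to 0.413 over sites), but with 2 numbers this does not show that they are paired.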
